A study of Saccharomyces cerevisiae with 32 samples.

Results

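The RPL genes of budding yeast encode the proteins of the large (60S) subunit of the cytosolic ribosome, and most of them exist as a pair of near-identical copies, named A and B. They were taken by symbol: RPL, a number and, where there is one, a final A or B, which leaves out the acidic stalk proteins and the mitochondrial ribosome. The reference annotation lists 76 such genes for 43 proteins, 33 of them with both an A and a B copy and 10 with a single gene. Of these, 70 genes had a probe set under their own name and all 70 passed the filter on low signal, among 5377 genes tested and 5449 genes with a probe set. Both copies were measured in 27 pairs and only 1 copy in 6 pairs.

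The samples were 32 arrays from 1 continuous culture of the haploid laboratory strain CEN.PK113-7D (MATa), kept at pH 4.0 and 30 °C, whose dissolved oxygen oscillated with a period of about 2 h. No allele, drug or second strain was compared: all 32 samples form 1 group, and the dilution rate was set between 0.06 and 0.086 per h to hold the period. A sample was frozen every 4 min, each was given a phase angle in the labels, and neighbouring samples lie 12.5° apart, so that a turn of 360° took 115 min. The last 3 samples came back to the angles of the first 3, there were no replicate cultures, and the sources used here do not place 0° relative to oxygen use.

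Ribosomal protein genes are among the most strongly expressed genes of a growing yeast cell, and as a group their transcription follows nutrient signals through the factors Rap1, Fhl1 and Ifh1. Most of the paired copies date from an ancient doubling of the yeast genome and encode proteins that are identical or nearly so. The copies can still differ in promoter, intron and untranslated regions, so the share of a protein's mRNA that comes from each copy can shift. Each pair was therefore asked a simple question: did copy A and copy B follow the same course over the respiratory cycle?

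The arrays carry oligonucleotide probe sets, and the deposited value is a linear signal per probe set. On every array the S. cerevisiae probe sets had a median of at least 1436, and those of fission yeast (S. pombe), taken as the background, had a median of at most 9.8. The a-cell genes of the labelled mating type had median signals from 1017 for ASG7 to 11095 for MFA2, with 8986 for MFA1 and 8231 for STE2. Of the alpha-cell genes, MF(ALPHA)2 was low at a median of 77.6, while MF(ALPHA)1 at 1079 and STE3 at 648 were also above the S. pombe signal. Since all samples came from 1 culture, every p-value below measures no more than their scatter about the fitted curve. In such bulk samples a change in the share of cells at a given stage and a change in RNA per cell cannot be told apart.

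Large subunit genes were high early in the labelled cycle and low between 122° and 159°. On the log2 scale after quantile normalization, the median RPL gene stood at 0.33 relative to its own mean at 46.8°, and at -0.40 at 134° and 146°. From 221° to 296° it stayed within a narrow band just under the mean, from -0.08 to -0.04, and it climbed to 0.19 in the last samples of the series. The highest sample of 36 of the 70 genes lay between 34.3° and 59.2°, and the lowest sample of 58 genes lay between 122° and 159°. The fall was therefore steep and the return slow: the median gene went from 0.21 at 84.2° to -0.27 at 122°, 12 min later, and did not regain 0.1 until 334°.

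**Figure D1:**
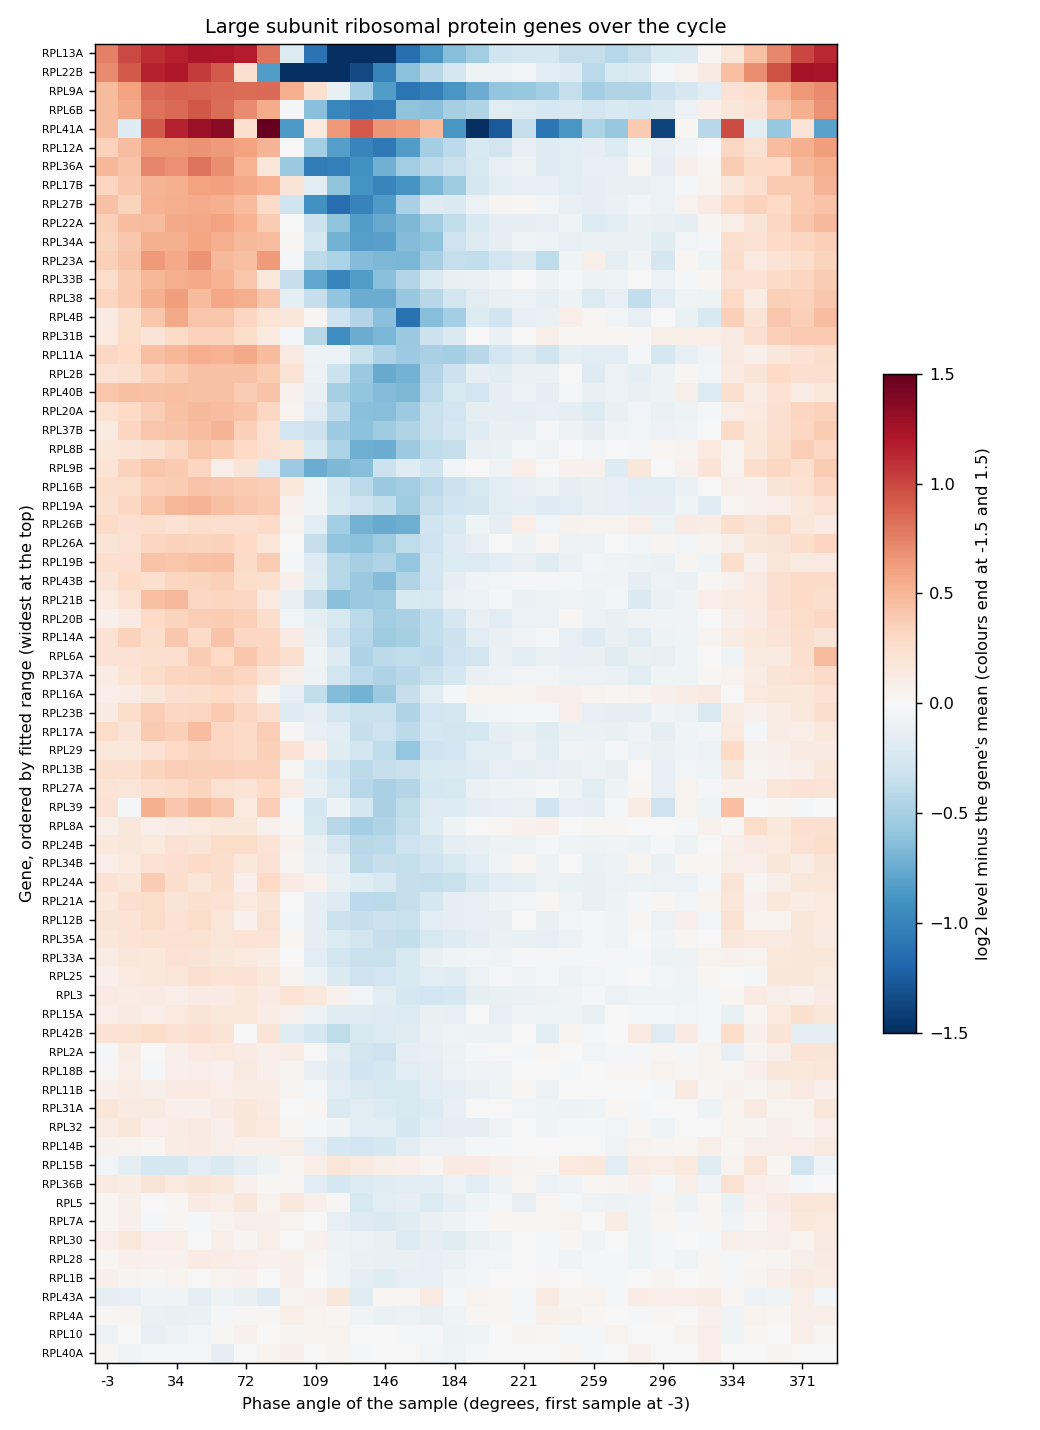
Log2 level of the 70 RPL genes (rows, ordered by fitted range) in the 32 samples (columns, phase angle in degrees), as the difference from each gene's mean; red is above and blue below it, and colours end at -1.5 and 1.5. Most rows are red between 34.3° and 59.2° and blue between 122° and 159°, while RPL15B near the bottom runs the other way in these quantile normalized levels (with poly-A scaling it did not pass the test).

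Each gene was fitted with a curve of 2 harmonics of the phase angle and tested with limma's moderated F test on values whitened for the correlation of neighbouring samples, with Benjamini-Hochberg adjustment over all 5377 genes. By this test 65 of 70 RPL genes (92.9%) varied with phase, next to 87.6% of all genes, which is close to the background. The fitted range, the difference between the top and bottom of the curve on the log2 scale, had a median of 0.74 over the 70 genes (from 0.07 to 2.76), against 0.84 over all genes. A called range of at least 1, a 2-fold change, was found in 18 RPL genes (25.7%), against 40.7% of all genes. Of the 65 genes called, 64 had their fitted peak between 17° and 60°. The exception was RPL15B, at 152°.

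The whitening rests on an estimate of the correlation between neighbours that is biased downward by the fitted terms. With a corrected estimate (0.80 in place of 0.38), the standard errors of the RPL genes were 2.03 times larger, and 46 of the 70 (65.7%) passed, next to 60.1% of all genes. The genes with a range of at least 1 all kept their calls, and those that lost them, 19 in number, had reported ranges of at most 0.70. Arrays were scaled to each other on the assumption of a common distribution of signals. The signal of the poly-A control transcripts was lowest at 71.7° (7.35 on the log2 scale) and highest at 334° (8.93). It was low in the same samples in which the RPL genes were high, and with arrays scaled to these controls 69 of 70 RPL genes varied (79.4% of all genes), 67 of them by at least 1, with a median range of 1.54 and a median peak at 52°. That scaling moved the median of all genes by -0.42 to 0.81 between samples, so part of these ranges is common to all genes. RPL10, with a range of 0.07 in the reported fit, had 1.04 with it. The share of all genes with a range of at least 1 was not taken in this fit. The 67 genes therefore have no background beside them and are not read as a result about RPL genes.

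RPL13A (YDL082W) and RPL22B had the largest called fitted ranges, which lie within their SE of each other. RPL13A encodes a protein found in eukaryotic ribosomes but not in bacterial ones, and its deposited signal was 1736 in the lowest sample (122°), 4959 in the median sample and 14488 in the highest (59.2°). The first 8 samples, from 357° to 84.2°, all gave at least 10697, and the next, at 96.6°, gave 4916. The fitted range was 2.76 ± 0.17 (SE, n = 32 samples), with a peak at 35° ± 2.57.

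RPL22B (YFL034C-A) had a fitted range of 2.70 ± 0.18. Its product sits on the outer face of the subunit and is not essential for growth. The signal was 1150 in the lowest sample (109°), 3960 in the median and 10392 in the highest (34.3°). Its peak at 17° ± 2.86 was the earliest among the 18 genes with a range of at least 1.

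RPL9A (YGL147C), whose protein lies near the site where elongation factors bind, ranged from 3148 at 159° over a median of 6797 to 15396 at 34.3°. Its fitted range was 1.93 ± 0.10 with a peak at 50° ± 2.36. RPL6B (YLR448W) ranged from 3820 over a median of 6853 to 14717 (range 1.79 ± 0.13), and RPL12A (YEL054C), for a protein at the base of the stalk, from 4234 over 8104 to 14306 (1.60 ± 0.11). In all 5 of these genes the lowest samples lay between 109° and 159° and the highest between 34.3° and 59.2°.

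The other genes with a called range of at least 1 were RPL36A (1.54), RPL17B (1.48), RPL27B (1.39), RPL22A (1.32), RPL34A (1.29), RPL23A (1.24), RPL33B (1.23), RPL38 (1.22), RPL4B (1.20), RPL11A (1.04), RPL31B (1.04), RPL2B (1.02) and RPL40B (1.00). They do not share a place in the ribosome. RPL17 and RPL31 proteins sit at the rim of the tunnel by which the new chain leaves, RPL4 reaches into that tunnel, RPL2 lies by the catalytic centre, RPL23 faces the small subunit and RPL11 binds the 5S RNA. Their fitted peaks lay between 27° and 45°, except RPL11A at 50°.

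Of the 10 single-copy genes 9 varied by the test, next to 87.6% of all genes. The 10 genes had a median range of 0.36 at a median mean log2 signal of 13.90. With the corrected correlation RPL38, RPL25 and RPL3 passed, next to 60.1% of all genes. RPL38 had the widest range of the 10: its signal went from 6833 at 159° over a median of 10097 to 17827 at 34.3°, a fitted range of 1.22 ± 0.11 (limma adjusted p = 5e-10). RPL3, a core protein beside the catalytic centre and the brightest member, spanned 14254 to 21271 with a median of 18387 and a range of 0.39 ± 0.05. RPL25, which receives chaperones and the signal recognition particle at the tunnel exit, had a range of 0.47 ± 0.05.

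RPL29 (range 0.70 ± 0.09) and RPL39 (0.62 ± 0.17), both short basic proteins, passed the test but not with the corrected correlation (adjusted p = 0.0694 and 0.78). The same held for RPL32 (0.33, adjusted p = 0.117), RPL5, the main carrier of 5S RNA (0.30, adjusted p = 0.468), RPL30, which controls splicing of its own transcript (0.25, adjusted p = 0.428), and RPL28, the target of cycloheximide resistance mutations (0.23, adjusted p = 0.0881). RPL10, a protein that joins the subunit late, in the cytoplasm, gave a signal between 14472 and 17430 with a median of 15691. Its range of 0.07 ± 0.06 did not pass (limma adjusted p = 0.718).

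Besides RPL10, the test did not call RPL4A, RPL40A, RPL43A and RPL41A. RPL40A, which encodes the ribosomal protein fused to ubiquitin, gave 14480 to 16689 with a median of 15582 (range 0.07 ± 0.05), and RPL43A, for a zinc-binding protein, gave 12518 to 15938 with a median of 14166 (0.17 ± 0.09). RPL4A was at 13935 to 17431 with a median of 15820 (0.09 ± 0.06), read from a probe set that can match both copies. Without scaling or with scaling by the array median these 4 genes with flat courses (RPL10, RPL4A, RPL40A and RPL43A) did not pass either. Scaled to the poly-A controls all 4 passed, with ranges of 1.04 for RPL10 and RPL4A, 1.00 for RPL40A and 0.90 for RPL43A (adjusted p from 0.000239 to 0.0021). RPL41A, for the smallest ribosomal protein, was the dimmest member, with signals from 190 over a median of 877 to 2379, and its range of 1.75 ± 0.72 did not pass (limma adjusted p = 0.186). It did pass with poly-A scaling (range 2.09, adjusted p = 0.0278), in the even time points alone (2.46, adjusted p = 0.0105) and without whitening (1.77, adjusted p = 0.00431). Its curve accounted for a share of 0.40 of its variance, against a median share of 0.88 over the RPL genes.

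In most pairs the signals of copies A and B changed unequally over the cycle by the reported test. The difference log2(A) minus log2(B), taken within each array, was fitted and tested in the same way, with adjustment over all 52 A/B-named pairs on the array (27 RPL pairs, 21 of the small subunit and 4 others). Pairs with a probe set whose name ends in _s_at, which can match more than 1 transcript, are called marked. The difference varied with phase in 25 of 27 RPL pairs (92.6%), next to 88.5% of all such pairs. The range of the difference was at least 1 in 8 RPL pairs (29.6%; all pairs 30.8%) and at least 0.5 in 20 (74.1%; all pairs 71.2%), with a median of 0.71 and limits of 0.19 and 2.11. With the corrected correlation 20 RPL pairs passed (74.1%; all pairs 73.1%), and the pairs lost were RPL19, RPL20, RPL21, RPL23 and RPL37. The RPL pairs make up 27 of the 52 pairs, and most of the rest are of the small subunit. The shares therefore cannot show whether RPL pairs differ from other pairs, and they say nothing particular of the large subunit.

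**Figure D2:**
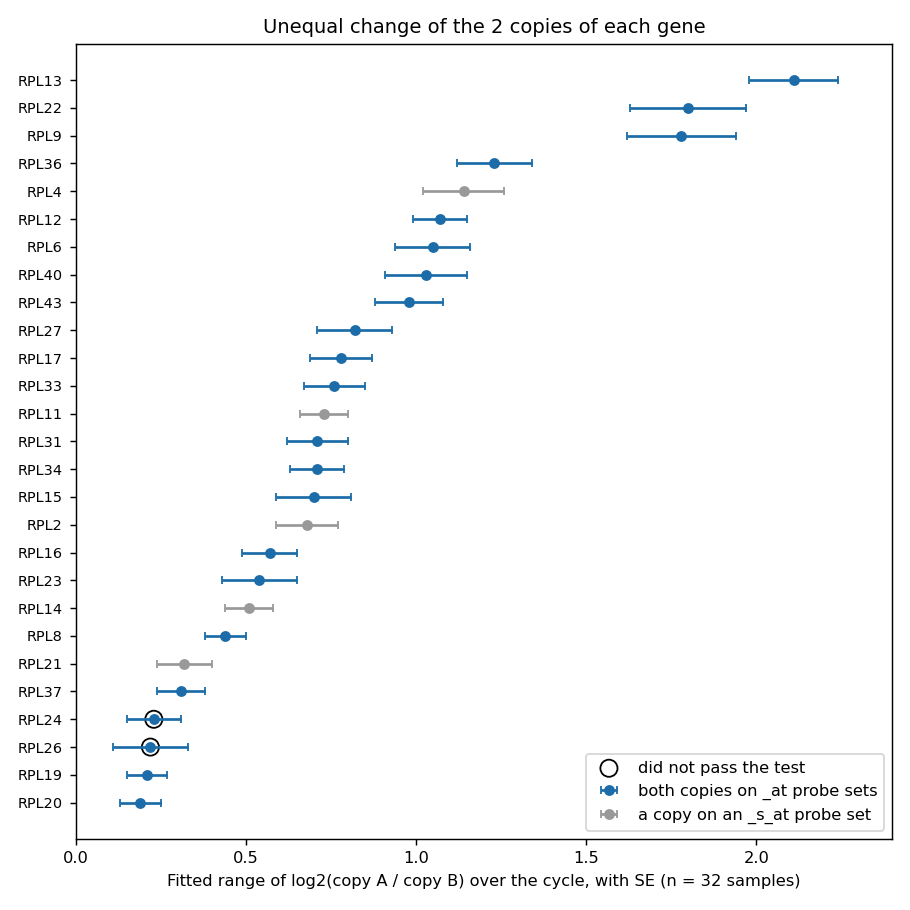
Fitted range of log2(copy A / copy B) over the cycle (x axis, log2) for the 27 RPL pairs measured with both copies; points are the range and bars its SE over 32 samples. RPL13, RPL22 and RPL9 lie apart from the rest at 1.78 to 2.11, and the circled pairs RPL24 and RPL26 did not pass the test; grey marks pairs in which a probe set can match both copies.

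Copy B had the wider range in 16 pairs and copy A in 11, so neither letter marks the more variable copy. In RPL11, RPL14 and RPL21 the wider copy depended on the probe set, as given below. In 20 of 27 pairs the ratio of the wider to the narrower copy had its lowest sample between 109° and 159°. In 22 pairs its highest lay between 357° and 96.6°. Since most copies rose and fell together, a ratio taken in this direction largely repeats their common course. A separate probe set reads each copy, so the ratios give differences in how much each probe set's signal changed. They do not give the copies' shares of the mRNA.

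The RPL13 pair had the largest fitted range of the ratio, and the RPL22 pair the largest fold change of the ratio between samples. RPL13B (YMR142C) gave signals from 10815 over a median of 14016 to 19910, a fitted range of 0.69 ± 0.08, whereas RPL13A changed by 2.76. The log2 ratio of A to B was -2.63 at 122° and -0.36 at 23.8°, a 4.8-fold change of the ratio. Its fitted range was 2.11 ± 0.13 (limma adjusted p = 1.1e-14). Its mean was -0.65 over samples 1 to 3 and -0.48 over the last 3, at nearly the same angles of the next turn.

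In the RPL22 pair both copies changed, by different amounts and at different times. RPL22A (YLR061W) went from 5781 over 9661 to 16001, with a range of 1.32 ± 0.08 and a peak at 38°, against 2.70 and 17° for RPL22B. RPL22B had dropped to 2393 by 84.2° while RPL22A was still at 13658. The log2 ratio of A to B was 2.82 at 96.6° and 0.39 at 11.1° of the next turn, a 5.37-fold change, with a fitted range of 1.80 ± 0.17 (limma adjusted p = 1.69e-09).

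The RPL9 pair was similar in its timing. RPL9B (YNL067W) gave 5536 in the lowest sample (122°), 9137 in the median and 12192 in the highest (21.8°), with a range of 0.95 ± 0.11. At 84.2° RPL9B had already dropped to 7686, while RPL9A stood at 14408; at 159° RPL9B was back at 7120 and RPL9A was at its lowest, 3148. The log2 ratio of A to B went from 0.92 at 96.6° to -1.10 at 159°, a 4.05-fold change within 20 min of culture, and its fitted range was 1.78 ± 0.16 (limma adjusted p = 3.42e-11). The first 3 and last 3 samples gave ratios of 0.14 and 0.13.

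In RPL36, RPL12 and RPL6, 1 copy had a wide course beside a flatter partner. RPL36A went from 4361 over 8664 to 15583 (range 1.54 ± 0.14), while RPL36B went from 11562 over 13973 to 16746 (0.32 ± 0.07), and the ratio had a range of 1.23 ± 0.11 (limma adjusted p = 9.62e-11). RPL12B ranged from 11717 over 15635 to 19620 (0.53 ± 0.08), against 1.60 for RPL12A, with a ratio range of 1.07 ± 0.08 (adjusted p = 4.28e-12). The narrower courses of RPL36B and RPL12B did not pass with the corrected correlation (adjusted p = 0.517 and 0.144). RPL6A ranged from 7679 over 10458 to 15231 (0.81 ± 0.08), against 1.79 for RPL6B, with a ratio range of 1.05 ± 0.11 (adjusted p = 1.93e-09).

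In RPL40 and RPL43 the test called copy B and not copy A. RPL40B, the second ubiquitin fusion gene, went from 7114 at 159° over 12098 to 17716 at 34.3° (range 1.00 ± 0.12), and the log2 ratio of A to B from -0.23 at 59.2° to 1.03 at 159° (range 1.03 ± 0.12, limma adjusted p = 1.63e-08). RPL43B went from 8087 over 11784 to 16156 (0.84 ± 0.07), and the ratio from -0.23 at 46.8° to 0.93 at 146° (range 0.98 ± 0.10, adjusted p = 1.23e-09). The ratio is read within an array and shows unequal change; with poly-A scaling the A copies also passed, as given above.

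Fitted peaks of the copies lay farthest apart, among unmarked pairs with both ranges at least 0.5, in RPL9 (33° ± 6), RPL22 (21° ± 3.8) and RPL27 (14° ± 6.4). These pairs were picked for their gap, so the gaps are descriptions. The SE of a gap treats the copies as independent, although they share arrays. In the fit with the corrected correlation the SEs of the peaks were larger. Copies A and B then peaked at 49° ± 4.4 and 19° ± 9.9 in RPL9, and at 37° ± 4.3 and 19° ± 4.2 in RPL22. In RPL27 they peaked at 39° ± 9.6 and 25° ± 7.1. With poly-A scaling the peaks of copies A and B lay at 54° and 39° in RPL9, 48° and 27° in RPL22, and 52° and 41° in RPL27, so the RPL9 gap shrank. In RPL9 copy B peaked earlier, at 17° ± 5.52, in RPL22 copy B at 17° ± 2.86, and in RPL27 copy B at 27° ± 4.41 against 41° ± 4.69 for copy A. RPL27B ranged from 4338 at 122° over 9667 to 15309 (range 1.39 ± 0.14) and RPL27A from 7268 at 159° over 10747 to 14132 (0.68 ± 0.07). The earlier copy also reached its lowest sample earlier in all 3 pairs. Over the 27 pairs the median gap was 7°, less than 1 sampling step.

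**Figure D3:**
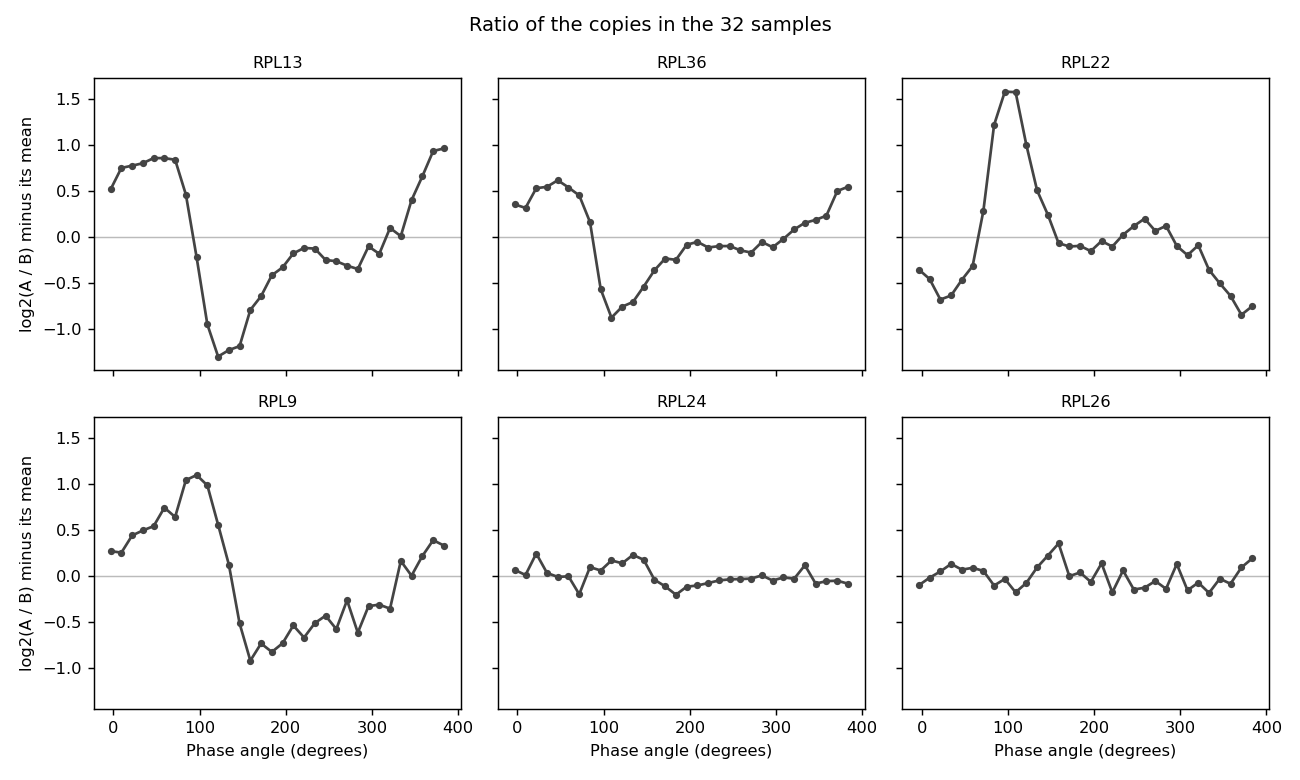
Log2(copy A / copy B) minus its mean over the 32 samples (y axis) against phase angle in degrees for 6 pairs, with 1 point a sample. In RPL13 and RPL36 the ratio is already falling at 84.2° and is lowest at 122° and 109°. In RPL22 and RPL9 it is highest at 96.6°, and in RPL24 and RPL26 it shows no course that passed the test.

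At the other end, 4 pairs without a marked probe set had the smallest ratio ranges. RPL24, whose protein joins the subunit in the cytoplasm, had a ratio range of 0.23 ± 0.08 (limma adjusted p = 0.158), with copy ranges of 0.57 and 0.60 and signals of 9902 to 18502 for A and 10159 to 17462 for B. RPL26, at the tunnel rim, had a ratio range of 0.22 ± 0.11 (adjusted p = 0.322) with copy ranges of 0.86 and 0.87. In the even time points alone both passed, with ranges of 0.31 and 0.42 (adjusted p = 0.0149 and 0.0146). RPL19 (0.21 ± 0.06, adjusted p = 0.011) and RPL20 (0.19 ± 0.06, adjusted p = 0.0138) passed the test, but not with the corrected correlation (adjusted p = 0.403 and 0.42). A p that misses the threshold does not show that the copies changed alike, and the RPL20 ratio in particular depends on the data used, with a range of 0.33 with the mean of its probe sets and 0.45 without the last 3 samples.

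RPL15 went its own way. RPL15A (YLR029C), the copy that cells need for growth, had signals of 10239 to 15414 with a median of 12435 and a range of 0.38 ± 0.06, highest at 40° (not passing with the corrected correlation, adjusted p = 0.077). RPL15B (YMR121C) was dim, with signals of 1893 to 3564 and a median of 2855, and its fitted course ran opposite, with a range of 0.32 ± 0.10 and a peak at 152° (limma adjusted p = 0.0367). That course did not pass with the corrected correlation (adjusted p = 0.764), and with poly-A scaling RPL15B was the 1 RPL gene that did not pass. The log2 ratio of A to B went from 1.79 at 122° to 2.67 at 11.1°, and its range of 0.70 ± 0.11 passed in both fits (adjusted p = 2.07e-06 and 0.022).

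Of the 70 genes, 11 were read from marked probe sets. Among the 27 pairs, 5 contain 1: their ratio ranges were 1.14 in RPL4, 0.73 in RPL11, 0.68 in RPL2, 0.51 in RPL14 and 0.32 in RPL21, all past the test, the last not with the corrected correlation (adjusted p = 0.248). The 22 unmarked pairs had 20 calls (88.5% of all A/B pairs were called) and a median range of 0.74. For 7 genes the array holds a second probe set, and in 6 of these the brighter set had the narrower range. RPL18B is the clearest case: its shared set gave signals of 11542 to 16204 and a range of 0.34 ± 0.05, and its own set gave 1266 to 7827 and a range of 2.15 ± 0.17. RPL14B had ranges of 0.33 and 1.30 by its shared and own sets, and RPL11B of 0.34 and 1.07. Taking the own set where there is 1 left 24 pairs called and changed the sign of the ratio's course in RPL14, with a range of 0.68. The wider copy became B in RPL11 (1.07 against 1.04) and RPL14 (1.30 against 0.82), and A in RPL21 (0.96 against 0.84). Which copy was wider in these marked pairs therefore depended on the probe set. In the other 6 pairs the array names a probe set for 1 copy alone, and that copy was read from a marked set, so those 6 pairs gave no comparison of copies.

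Signal brightness moved with these ranges. In 26 of 27 RPL pairs, all but RPL15, the copy with the wider range had the lower mean signal. The same held in 20 of 21 small subunit pairs. With unmarked probe sets preferred it held in 25 of 27 RPL pairs. Mean and range come from the same 32 samples, so a copy with a deeper trough also tends to have a lower mean. The count is in part arithmetic. Among all 70 genes the median range was 1.93 for the 5 with a mean log2 signal of 12 to 13, 0.99 for the 21 in the next brighter bin and 0.50 for the 42 brightest. Genes outside the ribosome had median ranges of 0.89, 0.73 and 0.42 over the same bins. The highest signal of any probe set in the series was 25200, and the highest of an RPL gene was 21426, in RPL42B.

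**Figure D4:**
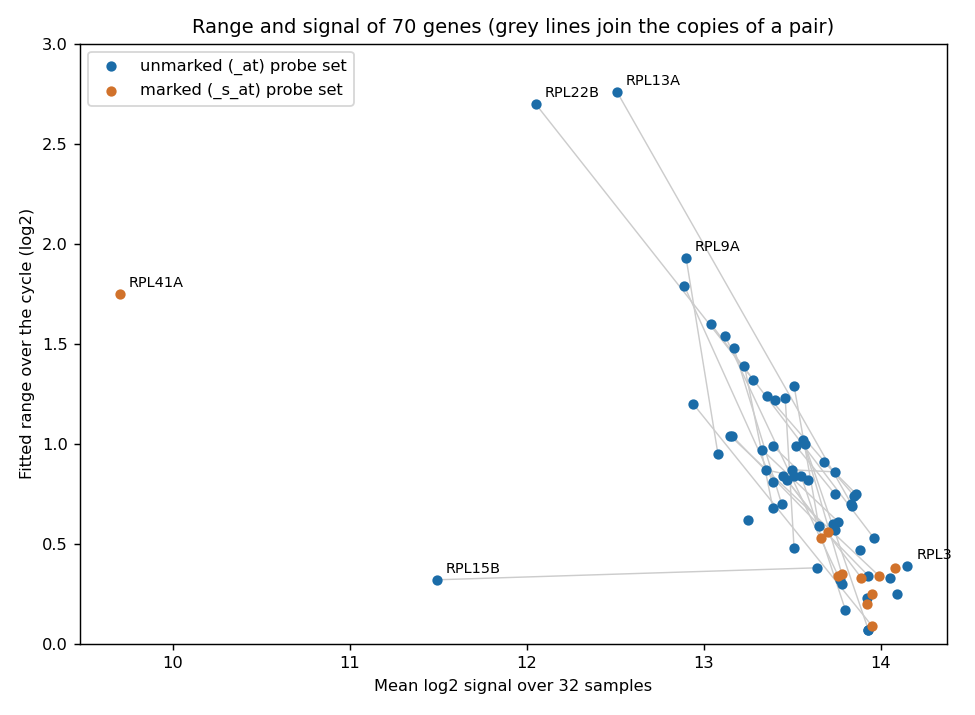
Fitted range over the cycle (y axis, log2) against mean log2 signal over 32 samples (x axis) for the 70 RPL genes; grey lines join the copies of a pair and colour marks probe sets that can match several transcripts. Nearly all lines run from a wide, dimmer copy at the upper left to a narrow, brighter copy at the lower right; RPL15B is the exception, and RPL41A did not pass the test.

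In 8 unmarked pairs the mean log2 signals of the copies lay within 0.2 of each other, a limit set after the values were seen, and 5 of these pairs had a called ratio range of at least 0.5: RPL9 (1.78), RPL27 (0.82), RPL33 (0.76), RPL34 (0.71) and RPL16 (0.57). In all 8 of them the copy with the wider range was still the slightly dimmer one, with mean and range again taken from the same samples. RPL33A and RPL33B had mean log2 signals of 13.51 and 13.46. RPL33A spanned 9148 over a median of 11501 to 14675, and RPL33B 5766 over 11148 to 17584 (ranges 0.48 ± 0.05 and 1.23 ± 0.11). RPL16 differed from the others in that its ratio was highest at 196° and lowest at 122°, with copy A at its lowest before copy B. The part of brightness in these ranges was not tested.

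The genes around the large subunit were read from the same fit. Of 52 small subunit genes (RPS), 49 varied (94.2%, next to 87.6% of all genes), 19 of them by at least 1 (36.5%, next to 40.7%), with a median range of 0.69. With the corrected correlation 36 passed, next to 60.1% of all genes. The widest were RPS26B (2.52 ± 0.14), RPS9A (2.17 ± 0.19) and RPS22A (1.64 ± 0.09). The RPS9 copies, like those of RPL22, peaked apart, at 11° for A and 36° for B. In the 21 small subunit pairs 18 ratios varied (85.7%, next to 88.5% of all A/B pairs). Their median range was 0.74, close to the 0.71 of the large subunit. Of the genes of the stalk proteins, which recruit elongation factors, 4 of 5 passed, next to 87.6% of all genes. With the corrected correlation 2 passed (60.1% of all genes), and with poly-A scaling 5 (79.4% of all genes). The 5 stalk genes had a median range of 0.38, with 0.46 in RPP2A, at a median mean log2 signal of 13.77. The brightest genes outside the ribosome had a median range of 0.42. RPP0 did not pass (0.15, limma adjusted p = 0.184).

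Dedicated chaperones, which bind single large subunit proteins as they are made, had wide courses. All 5 varied by at least 1, as did 40.7% of all genes, with peaks between 25° and 32° and a median range of 3.72. SYO1, which carries the RPL5 and RPL11 proteins to the nucleus, ranged from 94.8 over a median of 725 to 4177 (5.08 ± 0.22), RRB1, the chaperone of RPL3, from 422 over 2276 to 12848 (4.62 ± 0.15), and SQT1, that of RPL10, from 449 over 2483 to 10052 (3.72 ± 0.21). The genes of these clients had ranges of 0.30 (RPL5), 1.04 and 0.34 (RPL11A and RPL11B), 0.39 (RPL3) and 0.07 (RPL10). The other chaperones on the list were ACL4, that of RPL4 (2.66 ± 0.13), and BCP1, that of RPL23 (3.08 ± 0.12). Their clients' genes had ranges of 0.09 and 1.20 (RPL4A and RPL4B), and 1.24 and 0.74 (RPL23A and RPL23B). The 0.34 of RPL11B is from a probe set that can match both copies, and its own set gave 1.07. The 0.09 of RPL4A is also from a set that can match both copies. The chaperone genes had a median mean log2 signal of 10.68, against 13.58 for the RPL genes.

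All 14 regulators of ribosomal protein genes varied (87.6% of all genes), 4 of them by at least 1 (40.7% of all genes), with a median range of 0.89. With the corrected correlation 7 passed (60.1% of all genes): ABF1, CRF1, FHL1, IFH1, SCH9, SFP1 and TOD6. With poly-A scaling 11 passed (79.4% of all genes). TOD6, a repressor of ribosome assembly genes, peaked at 29° (range 4.53 ± 0.19), and IFH1, the coactivator at RPL promoters, at 20° (3.72 ± 0.25), its signal going from 158 at 122° over a median of 818 to 4626 at 21.8°. CRF1, a corepressor that competes with Ifh1 for Fhl1, peaked at 153° (3.62 ± 0.21), with a signal of 83 at 46.8° and 1346 at 134°. IFH1 was highest in a sample in which RPL genes were high, and CRF1 in one in which they were low. TOD6, a repressor, was also highest where RPL genes were high, at 34.3°. These genes had the widest ranges of the 14, and the peaks of the others were spread. FHL1 and ABF1 peaked at 46°, SFP1 at 41°, SCH9 at 32°, RAP1 at 61° and CBF1 at 72°. REB1 peaked at 124° ± 29.8, STB3 at 145°, TBF1 at 168°, HMO1 at 181° and DOT6 at 296°. None of these late-peaking genes passed with the corrected correlation, nor did RAP1 and CBF1. Whether any regulator drives the RPL course was not tested.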

How the data were processed

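Total RNA of 32 samples was hybridised to Affymetrix Yeast Genome 2.0 arrays, 1 array a sample. The authors deposited an intensity per probe set on a linear scale. Per the submitters' processing notes it was made with GCOS; the sources used here do not give a version, an algorithm or a scaling. Genes were named through the array annotation and the R64 reference table.

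Intensities were taken to log2 after adding 1.9 (their 10th percentile), quantile normalized over 5498 S. cerevisiae probe sets, and the brightest probe set stood for each gene. The test took genes whose mean exceeded 4.45 (95th percentile of S. pombe probe sets). R 4.3.3 and limma 3.58.1 fitted 2 harmonics of the phase angle to values whitened with a common lag-1 autocorrelation (0.38 for genes, 0.27 for ratios), and Benjamini-Hochberg adjusted p under 0.05 was called. Range and peak are of the fitted curve on a grid of 1°, with SE by the delta method. The method was tested on simulated data, in which the estimated autocorrelation was too low and unchanged genes were called, so a corrected value (0.80 and 0.63) was added after seeing the data. The number of arrays limits the precision.

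Members and lists were chosen with earlier results of these data known. Genes named were those with a range of at least 1, those not called and single-copy genes; pairs named were the 8 with the largest and 4 with the smallest ratio range, the 3 with peaks farthest apart, and those with marked probe sets; RPL15, RPL33, RPL34, RPL16, RPL18B, RPS9 and probe sets compared were chosen after their values were seen. Probe sets naming no S. cerevisiae gene did not enter the tests. Alternatives were other scalings, filters, pseudocounts, probe set rules, harmonics, whitening, added terms and subsets of samples; the rule preferring unmarked probe sets was also added after seeing the data.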

Additional observations from a re-analysis of the deposited data

How the results depend on the processing

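Over all alternatives the number of RPL genes called stayed between 46 and 69 (65 in the reported analysis) and the number of RPL pairs between 20 and 26 (25), and neither moved by more than 1.5 times. The lowest counts came from the corrected autocorrelation (46 genes, 20 pairs) and, for pairs, also from 1 harmonic (56 genes, 20 pairs) and from the 22 pairs without a marked probe set (20). Counts by size moved more: genes with a called range of at least 1 numbered 18 in the reported analysis, 7 with 1 harmonic and 67 with poly-A scaling, and pairs 8, 2 with 1 harmonic and 6 without scaling or with the array median or poly-A controls. Of all genes, 4711 were called in the reported analysis, 4705 with the array median, 4263 without scaling and 4269 with poly-A scaling. In each of these fits 46 of the 52 A/B pairs were called. With the corrected autocorrelation 3229 genes and 38 pairs were called. The share of all genes or pairs with a range of at least 1 was taken in the reported analysis alone. The counts by size in the alternatives therefore have no background beside them. The genes that lost their call with the corrected autocorrelation were RPL1B, RPL2A, RPL5, RPL7A, RPL11B, RPL12B, RPL14B, RPL15A, RPL15B, RPL18B, RPL24A, RPL28, RPL29, RPL30, RPL31A, RPL32, RPL36B, RPL39 and RPL42B.

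For genes that did not pass, the fitted course turned with scaling by the array median (RPL4A range 0.34, RPL10 0.33, RPL40A 0.29, RPL43A 0.20) and by the poly-A controls (RPL40A 1.00, RPL43A 0.90), and the ratio of RPL14 turned with its unmarked probe set (0.68). The cause was not tested. The copy with the wider range was the same in 24 to 27 of 27 pairs over the alternatives. With 1 harmonic the peaks lay earlier (RPL22B at 349°, RPL9B at 336°). No paired analysis was possible because all samples form 1 group along 1 cycle. Without the last 3 samples 65 genes and 25 pairs were called.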
